A study of Mus musculus with 12 samples.

Results

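Naive CD4+ T cells given interleukin-7 (IL-7) for 24 h were set against the same kind of cells at 0 h. The comparison rests on 4 of the 12 arrays of the series, 2 at 24 h and 2 at 0 h, taken by their labels, and on every probe detected on at least 2 of the 4. That left 15471 of 45281 probes for the test, standing for 8176 named genes. The cells came from the spleens of mice aged 2 months. Their labels give the strain as B6.Cg-Tg(TcraTcrb)425Cbn/J, a line known as OT-II whose CD4+ T cells carry a transgenic T cell receptor for a chicken ovalbumin peptide, while the design text names C57BL/6. The 24 h group had IL-7 throughout. The 0 h group had none and no time in culture, so IL-7 and time in culture cannot be told apart. A pair of arrays at 6 h of IL-7 is used to place the 24 h values in time and, in an alternative fit, to share the estimate of spread. The other 6 arrays of the series hold Th9 cells and are not analysed here. The labels number the replicates and do not say what was repeated, the mouse, the culture or the hybridisation. A p-value here therefore reflects the spread of numbered repeats, which may be technical. All 4 arrays lay on 1 BeadChip, by the labels.

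IL-7 is made by stromal cells of lymphoid organs and keeps naive T cells alive without making them divide much. It binds a receptor of the IL-7 receptor alpha chain (Il7r) and the common gamma chain (Il2rg), which bring the kinases JAK1 and JAK3 together. These phosphorylate the transcription factor STAT5, which enters the nucleus and switches on genes such as the survival factor Bcl2, the Pim kinases and the inhibitors Cish and Socs2, which feed back on the receptor. The receptor also activates PI3 kinase and AKT, which hold forkhead FOXO factors out of the nucleus.

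Mean deposited signal was 219.3 and 172.9 at 24 h and 245.2 and 197.6 at 0 h, and between 32.1% and 34.4% of the probes were detected on each array. Pearson correlations of normalised log2 intensity across the tested probes, which are not independent replicates, were 0.991 for the 24 h pair and 0.992 for the 0 h pair, and 0.959 to 0.963 for arrays of different times. The label was checked against markers. The T cell genes Cd3e, Cd3d, Cd3g, Cd4, Cd28, Thy1 and Zbtb7b were detected in both groups, while Cd5 was undetected on all 4 arrays. Among markers of other cells, Cd8a was undetected on all 4 arrays but Cd8b1 was not (10.44 and 10.17 at 24 h, 11.20 and 10.91 at 0 h). The B cell genes Ms4a1, Cd22 and Pax5 and the myeloid genes Itgam, Itgax and Adgre1 were undetected on all 4. Others were detected on all 4, among them the B cell genes Cd74 and Cd79b and the myeloid genes Ctss, Fcer1g, Lyz1, S100a8, S100a9 and Cst3. So were the natural killer cell genes Prf1, Nkg7, Ccl5 and Klrd1 and the gamma delta T cell gene Trgv4. Prf1 had deposited signals of 2468.2 and 1675.6 at 24 h, against 2942.6 and 1750.4 at 0 h. Those of Nkg7 were 1547.9 and 956.3, against 1490.2 and 1177.0, and those of Trgv4 1409.6 and 848.9, against 1118.5 and 720.1. At least 1 array detected 5 of 13 B cell, 8 of 24 myeloid and 5 of 15 natural killer cell markers at 24 h, against 7, 14 and 10 at 0 h.

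Summed signals of most marker lists of other cells were lower at 24 h, a measurement that stands beside every fall described here. The 8 erythroid markers with a probe summed to deposited signals of 221.2 and 288.2 at 24 h, against 2139.4 and 1664.9 at 0 h, with 4 of 4 tested members called lower. The globin gene Hbb-bs alone had signals of 95.3 and 133.0 at 24 h, against 884.3 and 736.2 at 0 h. The 13 pancreas markers summed to 63.3 and 50.2 at 24 h, against 1468.5 and 214.2 at 0 h, most of it the amylase Amy2a5 on the first 0 h array. The 13 B cell markers summed to 161.9 and 314.7, against 568.9 and 667.3, and the 24 myeloid and dendritic cell markers to 2194.2 and 1812.0, against 3224.7 and 2488.9, with 2 and 8 tested genes called lower. The 15 natural killer cell markers summed to 5398.3 and 3619.3, against 7051.7 and 4902.3, with 4 called lower, and the 4 CD8 T cell markers to 1472.6 and 932.0, against 2826.0 and 1794.3. The 8 markers of CD4 T cells summed to 27851.8 and 22777.9, against 40902.8 and 32106.9, with 2 called lower. The 6 gamma delta and innate-like T cell markers summed to 1467.8 and 874.4, against 1443.8 and 950.5, with 1 called lower. These sums were not scaled between arrays, and mean signal was lower at 24 h in each numbered repeat. The natural killer sum lost a smaller share than the CD4 T cell sum in each numbered repeat, but most of it came from Prf1, Nkg7 and Ccl5. Its 4 members called lower were Klrd1, Klra3, Klra7 and Klre1, and the other 4 tested were not called. Klrd1 had signals of 357.2 and 258.1 at 24 h, against 1036.9 and 734.5 at 0 h. In bulk RNA, fewer cells of a type and less RNA per cell cannot be told apart. The part of other cells in the results that follow was not tested.

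At 24 h 3219 probes were called (20.8% of those tested; limma, 2-sided, Benjamini-Hochberg adjusted p under 0.05), 1578 of them higher (10.2%) and 1641 lower (10.6%). The change was 2-fold or more for 786 of the called probes (5.08%). With each gene stood for by its brightest tested probe, 790 of 8176 genes were higher (9.66%) and 929 lower (11.4%), and the median log2 fold change over all of them was -0.01. Of these genes 196 were higher and 264 lower by 2-fold or more. Quantile normalisation bears on this balance: with 75th percentile scaling 1420 probes were higher and 1835 lower, so that 43.6% of the calls were higher, against 49.0%. These shares are the background for every gene list. The 24 h and 0 h arrays did not overlap for 9577 probes (61.9%). The count of called probes was 2300 and 2130 without the first and the second 24 h array, and 1152 and 1247 without the first and the second 0 h array; 895 probes were called whichever array was left out, and that set is used below to say which list members rest on no single array.

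**Figure D1:**
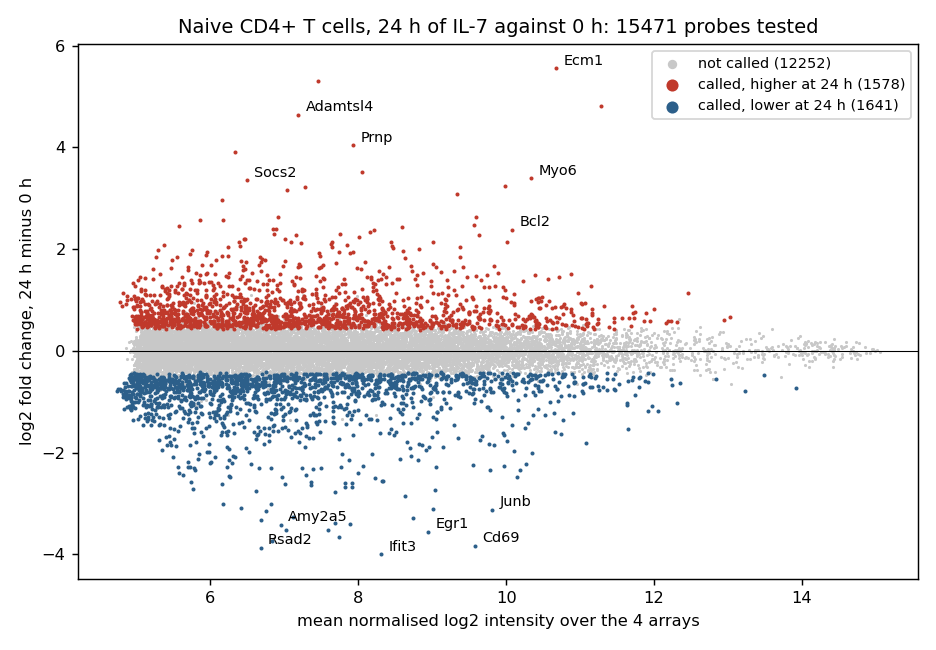
Log2 fold change (24 h minus 0 h, vertical axis) of each of the 15471 tested probes against its mean normalised log2 intensity over the 4 arrays (horizontal axis), with 1578 probes called higher in red, 1641 called lower in blue and the rest in grey. Calls lie on both sides of 0, and Ecm1 stands highest at 5.56.

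The largest rise was that of Ecm1, which encodes a secreted extracellular matrix protein. Its normalised log2 intensity was 13.26 and 13.65 on the 24 h arrays, against 7.88 and 7.91 on the 0 h arrays, a 47.1-fold rise (log2 fold change 5.56 ± 0.16, SE of the fit, n = 2 arrays per group as for all that follow; limma adjusted p = 2.6e-06). Both Ecm1 arrays at 24 h thus stood among the brightest signals of the chip while those at 0 h were moderate, and a second probe for the gene gave 5.31. Adamtsl4, which encodes another secreted matrix protein, stood at 9.52 and 9.50 at 24 h and was undetected on both 0 h arrays (4.70 and 5.03), at least 21.6-fold higher. Such bounds set the mean of the detected group against the lowest detected signal of each undetected array. Prnp, the cellular prion protein, had 9.95 and 9.95 at 24 h and 6.21 and 5.62 at 0 h (16.5-fold), and Myo6, an actin motor, had 12.02 and 12.05 at 24 h and 8.81 and 8.46 at 0 h (10.5-fold). In each of these genes the gap between the times was many times the gap between replicates.

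The stress-responsive pseudokinase Trib3 rose 11.4-fold (9.87 and 9.74 at 24 h, 6.42 and 6.17 at 0 h), with all 3 of its probes called. The G protein-coupled receptor Gpr34 rose 9.36-fold, Drc1, a component of the dynein regulatory complex of cilia, 6.19-fold, the phospholipid flippase Atp10a 5.40-fold and the adhesion molecule Jaml 5.04-fold. Not detected on either 0 h array were 8430426J06Rik, Myl10, a myosin light chain, and Sema7a, a membrane-anchored semaphorin. They were at least 9.25-fold, 5.92-fold and 4.21-fold higher at 24 h. Socs2, Pim1 and Bcl2, also among the 15 largest rises, are described with the STAT5 targets below. Each of the 15 was called whichever array was left out.

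The largest falls were of interferon-stimulated and immediate early genes, described below, with a few others beside them. Slc16a5, of the monocarboxylate transporter family, stood at 7.34 and 7.59 at 24 h, against 10.64 and 10.50 at 0 h (log2 fold change -3.11 ± 0.14). Dtx1, a regulator of Notch signalling, stood at 5.34 and 6.30 at 24 h, against 9.40 and 9.31 at 0 h (-3.53 ± 0.27). Ampd1, which deaminates AMP, fell by 3.26 ± 0.17, and Ppp1r15a, the phosphatase subunit that reverses eIF2-alpha phosphorylation, fell by 3.28 ± 0.17. No array of one group reached the level of the other in these genes, as was so for 61.9% of all tested probes. The pancreatic amylase Amy2a5 had 5.38 and 5.11 at 24 h, against 9.88 and 7.44 at 0 h (-3.42 ± 0.62), so that the gap between the 0 h arrays was large beside the change. Its log2 fold change was -2.16 without the first 0 h array and -4.64 without the second, and its call was lost without the filter on dim probes and with trend and robust moderation. With the 6 h arrays in the fit the calls of Ampd1, Dtx1, Egr1, Egr3, Junb, Ppp1r15a and Rsad2 among the 15 largest falls ended. The 6 h arrays lay far apart in each of these, as in Ampd1 (7.11 and 4.43) and Dtx1 (7.99 and 4.98), and that fit shares their spread.

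**Figure D2:**
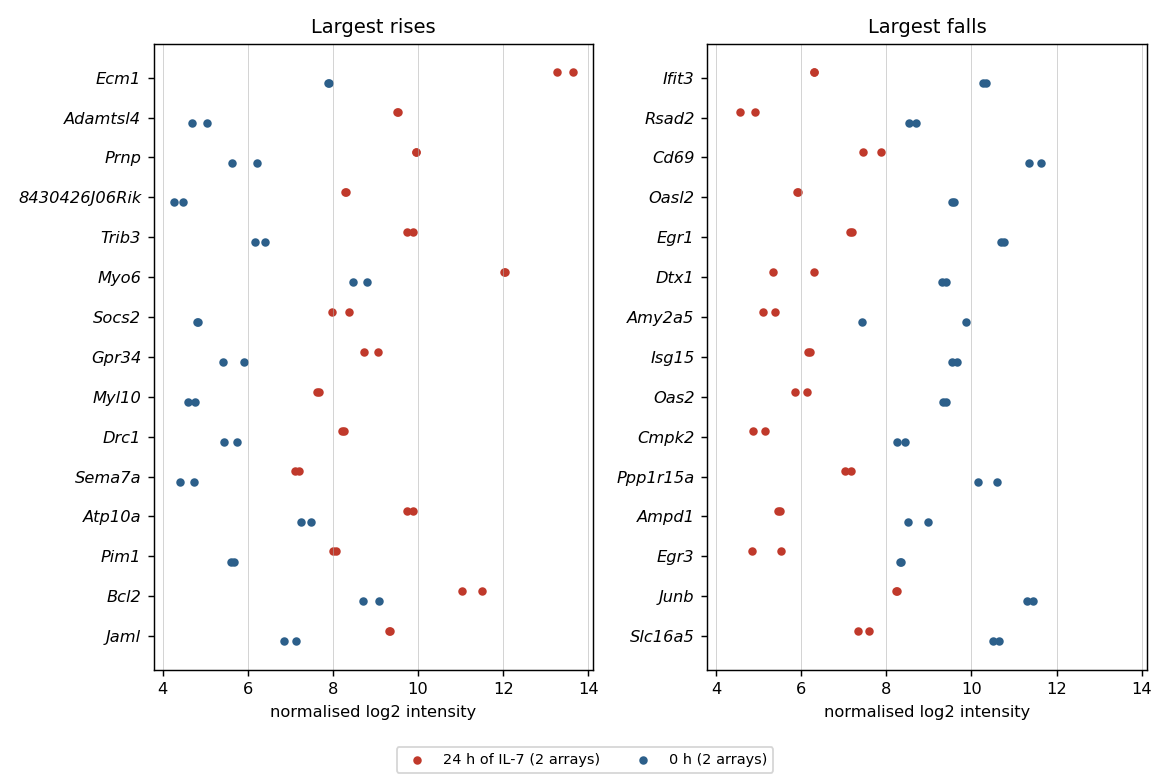
Normalised log2 intensity (horizontal axis) of the 15 genes with the largest rises (left) and the 15 with the largest falls (right), 1 point per array, the 2 arrays at 24 h in red above the 2 at 0 h in blue. The groups do not overlap in any of the 30 genes, which were picked by their change, nor in 61.9% of all tested probes. Amy2a5 has the widest gap between replicates, 9.88 and 7.44 at 0 h.

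Of 15 measured genes of IL-7 receptor signalling, 3 were called higher and 4 lower, with a median of 0.02. Il7r itself had 11.21 and 11.31 at 24 h and 10.81 and 10.84 at 0 h, a small gap outside the spread of replicates (0.43 ± 0.13, limma adjusted p = 0.046). Only 2 of its 5 tested probes were called, and another stood at -0.01. Jak3 fell by 1.14 ± 0.15 (6.48 and 6.70 at 24 h, 7.63 and 7.82 at 0 h), and both of its probes were called. The brightest Jak1 probe did not pass the test (-0.25 ± 0.13, adjusted p = 0.22), but its other 2 probes were called lower, at -0.83 and -0.51. Stat5a stood at -0.34 ± 0.14 (adjusted p = 0.13). Ptpn6, the phosphatase SHP-1 that restrains cytokine and antigen receptor signals, fell by 1.45 ± 0.13, and Stat3 fell by 0.61 ± 0.13. Pik3cd, the lymphocyte catalytic subunit of PI3 kinase, rose by 0.85 ± 0.16. Il2rg and Stat5b were not among the probes tested. Of the 7 calls, those of Jak3 and Ptpn6 held whichever array was left out, and those of Il7r, Stat3, Pik3cd, Ptpn2 and Tsc1 did not.

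Most STAT5 targets and feedback inhibitors rose. Among 19 measured, 13 were called higher and 2 lower, and the median log2 fold change was 0.92. Socs2 stood at 8.37 and 7.98 at 24 h and was undetected at 0 h (4.80 and 4.83), at least 8.53-fold higher. Cish had 10.14 and 10.53 at 24 h and 8.86 and 8.86 at 0 h (1.47 ± 0.16), and Socs1 had 7.29 and 7.79 at 24 h and 6.56 and 6.58 at 0 h (0.97 ± 0.18). All 3 are inhibitors that bind the receptor complex or its kinases, and the arrays at 24 h lay above those at 0 h in each. The related inhibitor Socs3 was detected at both times and did not pass the test (-0.21 ± 0.13, adjusted p = 0.29).

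The kinase and growth genes among the targets rose too. Pim1, a kinase that promotes survival, had 8.07 and 8.01 at 24 h and 5.62 and 5.67 at 0 h (2.40 ± 0.13), and its relative Pim2 had 7.31 and 7.69 at 24 h and 5.66 and 5.98 at 0 h (1.69 ± 0.18). The other member, Pim3, stood at -0.23. Myc, a driver of growth and biosynthesis, had 7.27 and 7.27 at 24 h and 5.45 and 5.77 at 0 h (1.66 ± 0.15). The lymphotoxin gene Lta rose by 2.06 ± 0.13 and the IL-2 receptor alpha chain Il2ra rose by 1.86 ± 0.13. The 2 targets that were lower were Bcl6, the repressor that directs follicular helper T cells (7.83 and 7.53 at 24 h, 9.19 and 9.24 at 0 h, -1.54 ± 0.15), and Id2 (-0.61 ± 0.14). Whichever array was left out, 9 of the 13 rises and 1 of the 2 falls were called; Socs1, Osm, Ccnd3, Xbp1 and Id2 lost the call.

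The promoter of Cish is shown because a paired STAT element lies at its annotated start. The sequence is the RefSeq window of GRCm38.p6 at chr9:107296409-107296708, plus strand, from 250 bases before the start to 50 after it. Capitals mark matches to TTCNNNGAA, the letters searched for STAT5 on both strands, where matches may overlap.
Cish: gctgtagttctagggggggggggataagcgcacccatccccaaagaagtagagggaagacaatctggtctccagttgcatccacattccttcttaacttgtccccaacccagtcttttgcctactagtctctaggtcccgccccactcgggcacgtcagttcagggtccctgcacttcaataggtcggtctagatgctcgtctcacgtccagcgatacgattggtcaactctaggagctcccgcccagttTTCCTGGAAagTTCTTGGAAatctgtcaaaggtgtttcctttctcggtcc
The first match begins at the start base, +1, and the second at +12. RefSeq windows were at hand for 15 of the measured targets, and 4 of these genes hold a match: Cish, Lta, Bcl6 and Socs3, on 5 of 18 windows (27.8%), of which Cish and Lta were called higher, Bcl6 lower and Socs3 neither. Of all 32851 windows of this length, 8.30% hold one, against 6.94% of those of genes tested, 8.28% of those of genes called higher and 7.95% of those of genes called lower. A match describes letters and is not a measured binding site.

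Among survival genes the clearest change was in Bcl2, which blocks the mitochondrial path of cell death. It had 11.04 and 11.49 at 24 h and 9.07 and 8.71 at 0 h (2.38 ± 0.19, 5.19-fold), and all 6 of its probes were called, at 2.13 to 3.23. Its opponent Bcl2l11, which encodes the pro-apoptotic BIM, rose as well (10.28 and 10.12 at 24 h, 8.63 and 8.85 at 0 h, 1.46 ± 0.14). Of 12 measured members of the BCL2 family 3 were higher and 3 lower. The other rise was of Bbc3, which encodes the pro-apoptotic PUMA (0.67 ± 0.18). Bbc3 stood at 0.44 without the first 24 h array. Its call was lost without that array, without the first 0 h array and without the second 0 h array. The falls were of the pro-apoptotic Bmf, undetected at 24 h and at least 1.38-fold lower, and of Bcl2a1b and Bcl2a1d, near-identical protective genes whose probes may not tell them apart (-0.94 ± 0.18 and -1.21 ± 0.18). Mcl1, a protective member, missed the threshold (0.47 ± 0.15, adjusted p = 0.054). The calls of Bcl2a1b and Bcl2a1d were lost when 1 array was left out, and Bcl2l1 was not among the probes tested.

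Receptors for other cytokines divided. Of 18 measured, 6 were called higher and 4 lower, with a median of 0.19. Il10ra, the ligand-binding chain of the IL-10 receptor, rose most (8.34 and 8.25 at 24 h, 6.29 and 6.04 at 0 h, 2.13 ± 0.14). Il2ra followed (7.05 and 7.13 at 24 h, 5.22 and 5.24 at 0 h), then Il4ra, the IL-4 receptor alpha chain (7.45 and 7.66 at 24 h, 5.83 and 5.80 at 0 h, 1.74 ± 0.14). Ifngr1, the ligand-binding chain of the interferon gamma receptor, had 10.94 and 11.31 at 24 h and 9.31 and 9.97 at 0 h (1.49 ± 0.22). The arrays at 24 h lay above those at 0 h in all 4, while the groups did not overlap for 61.9% of all tested probes. These 4 were the rises called whichever array was left out. Il17ra rose by 0.55 ± 0.14. The falls were smaller: Il21r (-0.65 ± 0.16), Il27ra (-0.62 ± 0.13), Ifnar2, a chain of the type I interferon receptor (-0.56 ± 0.16), and Il6st, the shared gp130 chain (-0.53 ± 0.14). None of these 4 was called without the first or without the second 0 h array. Il2rb, the beta chain shared by the IL-2 and IL-15 receptors, stood at -0.12 and the TGF-beta receptor Tgfbr2 at 0.02. Of 3 tested probes of Ifnar2, 2 moved down and 1 was called.

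**Figure D3:**
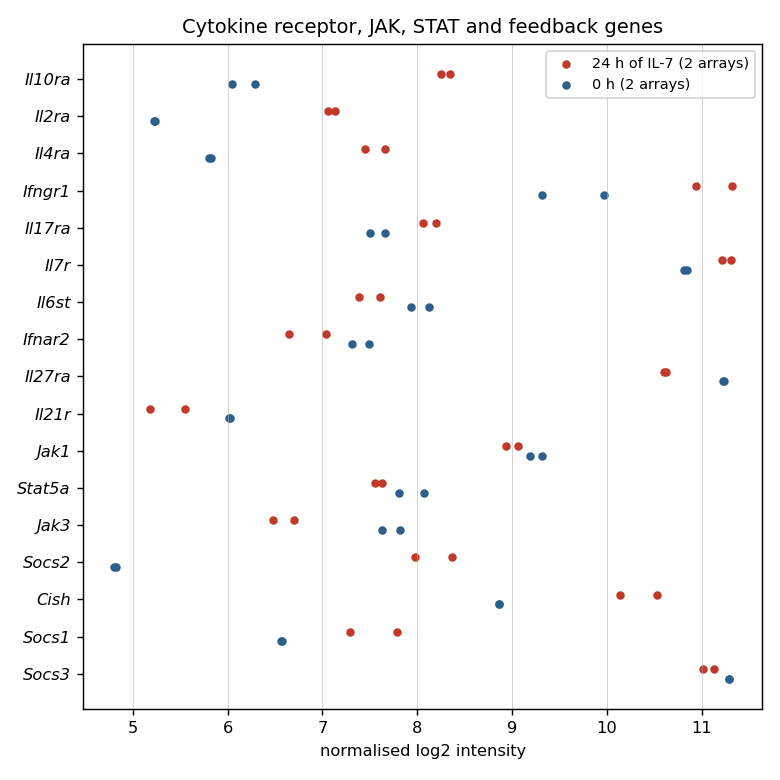
Normalised log2 intensity (horizontal axis) of 10 cytokine receptor genes called in either direction, 3 kinase and STAT genes and 4 feedback inhibitors, 1 point per array, the 24 h arrays in red above the 0 h arrays in blue. Il10ra, Il2ra, Il4ra, Ifngr1, Socs2 and Cish lie well to the right at 24 h, while Jak3 lies to the left.

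Most genes associated with regulatory T cells rose, while their lineage factor Foxp3 did not pass the test. Among 15 measured, 10 were called higher (66.7%, against 9.66% of all genes) and 2 lower (13.3%, against 11.4%), with a median of 1.41. The list was drawn up with earlier results of these data known, and it holds Ecm1, Socs2 and Gpr34 from the 15 largest rises. Its count is therefore no independent support for a rise of regulatory T cell genes as a group. Foxp3, which defines that lineage, had 9.33 and 9.47 at 24 h and 9.51 and 9.35 at 0 h, overlapping groups (-0.03 ± 0.14, adjusted p = 0.89). Beside Ecm1, Socs2 and Gpr34, the rises were of the actin-capping gene Capg (9.59 and 9.44 at 24 h, 7.38 and 7.34 at 0 h), the co-stimulatory receptor Tnfrsf18, known as GITR (11.01 and 11.14 at 24 h, 8.75 and 9.12 at 0 h), and the inhibitory receptor Ctla4 (8.50 and 8.37 at 24 h, 6.59 and 6.44 at 0 h). Their log2 fold changes were 2.15 ± 0.13, 2.14 ± 0.16 and 1.92 ± 0.13. The receptor Gpr83 rose by 1.41 ± 0.15 and the OX40 gene Tnfrsf4 by 0.92 ± 0.14. The integrin alpha chain Itgae, which binds E-cadherin, fell by 1.15 ± 0.24, and the folate receptor family gene Izumo1r was undetected at 24 h and at least 1.24-fold lower. Of the 10 rises 9 were called whichever array was left out, all but Swap70, and the fall of Itgae was not.

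Activation markers went both ways. Of 17 measured, 5 were higher and 6 lower. Cd69, which holds lymphocytes in tissue and is an early marker of activation, had 7.88 and 7.45 at 24 h, against 11.65 and 11.35 at 0 h, a 14.2-fold fall (-3.83 ± 0.18, limma adjusted p = 1.5e-05). The adhesion receptor Cd44, raised on activated and memory T cells, had 5.93 and 5.93 at 24 h, against 7.49 and 7.62 at 0 h (-1.63 ± 0.13). Both were thus lower at 24 h on every array, while Ctla4, Il2ra, Tnfrsf18 and Tnfrsf4 were higher. The AP-1 family factor Batf fell by 1.10 ± 0.15, Irf8 was undetected at 24 h and at least 1.51-fold lower, and Irf4 was undetected at 24 h too and not called (limma adjusted p = 0.26). Transcripts of Tfrc, the transferrin receptor, Slc3a2, a chain of amino acid transporters, and Icos did not pass the test, at 0.24, -0.36 and 0.36. Bhlhe40 rose by 0.56 ± 0.17, but stood at 0.34 without the first 24 h array. Its call was lost without that array, without the first 0 h array and without the second 0 h array.

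Cytokine genes and members of the TNF families also divided. Lta had 9.44 and 9.53 at 24 h, against 7.40 and 7.46 at 0 h, the CD30 ligand gene Tnfsf8 had 8.27 and 8.31, against 6.65 and 6.66 (1.64 ± 0.13), and Tnf rose by 0.84 ± 0.13. The chemokines were lower. Ccl4 (4.76 and 4.48 at 24 h, 7.02 and 6.83 at 0 h), Xcl1 (4.65 and 5.01 at 24 h, 6.99 and 6.73 at 0 h) and Ccl3 were undetected at 24 h and at least 3.35-fold, 3.20-fold and 2.03-fold lower. These chemokines are known products of natural killer and CD8 T cells as well as of activated T cells. The summed signals of the natural killer and CD8 markers were lower at 24 h, as was that of the CD4 T cell markers, all given above. The part of those cells in this fall was not tested. Tnfsf14, the ligand LIGHT, was also called lower and undetected at 24 h (4.50 and 4.37, against 6.07 and 6.29 at 0 h). Of 17 measured genes of the TNF receptor family and its adaptors 5 were higher and 4 lower; Tnfrsf18, Tnfrsf26 (1.08 ± 0.16) and Tnfrsf4 were called whichever array was left out, as were the falls of Tnfrsf1b (-0.86 ± 0.13) and Tnfsf14.

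Genes of naive T cells and of recirculation changed in part. Of 23 measured, 4 were called higher and 5 lower, with a median of 0.16. Klf2, the factor that drives the exit receptor S1pr1, had 12.49 and 12.32 at 24 h and 11.72 and 11.45 at 0 h (0.82 ± 0.15; not called without the second 0 h array), and its relative Klf3 rose by 1.12 ± 0.13. S1pr1 itself (5.88 and 6.16 at 24 h, 5.77 and 5.50 at 0 h) and the lymph node homing receptor Ccr7 (9.36 and 9.36 at 24 h, 9.28 and 9.07 at 0 h) did not pass the test, at 0.39 ± 0.16 and 0.18 ± 0.14. Ms4a4b, a membrane protein of T cells, rose by 1.65 ± 0.13. Foxo1 had 9.11 and 8.94 at 24 h and 9.79 and 9.40 at 0 h, with 1 of 2 probes called (-0.57 ± 0.16). Foxo1 stood at -0.37 without the first 0 h array and was not called whichever array was left out. The Wnt-pathway factor Lef1 rose by 0.61 ± 0.17, and Dapl1 fell by 1.47 ± 0.13. Foxp1, a keeper of quiescence, stood at 0.18 ± 0.18.

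Chemokine receptors and integrins were mostly lower. Of 22 measured, 13 were called lower and 4 higher, with a median of -0.66. After Cd44, the falls were led by the integrin beta chain Itgb2 (6.76 and 6.78 at 24 h, 7.93 and 8.15 at 0 h, -1.27 ± 0.14) and the inflammatory chemokine receptor Cxcr3 (5.20 and 5.34 at 24 h, 6.47 and 6.54 at 0 h, -1.23 ± 0.13). P2ry14, a receptor for UDP-sugars, fell by 1.23 ± 0.16, Itgae as above and Ly6c1, a surface protein of T cell subsets, by 1.08 ± 0.14. Cxcr4 fell by 0.65 ± 0.13 and Itgal, the alpha chain of LFA-1, by 0.84 ± 0.16. S1pr4 (0.80 ± 0.14), the alpha 4 and alpha 6 integrins Itga4 and Itga6 (0.76 ± 0.13 and 0.60 ± 0.13) and the selectin ligand Selplg (0.59 ± 0.13) rose. Of 4 tested probes of Itga4, 3 moved up and 2 were called. Only 6 of the 13 falls and 0 of the 4 rises were called whichever array was left out, and 7 falls and 0 rises were called without either the first or the second 0 h array.

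Among 30 measured genes of the T cell receptor and its signalling, 6 were lower, 1 was higher and 23 were not called, with a median of -0.20. Cd3e had 12.65 and 12.73 at 24 h and 12.72 and 12.68 at 0 h, with a log2 fold change that rounds to 0 (SE 0.13). Cd6, a co-receptor that binds ALCAM, fell by 1.27 ± 0.15 and was the call that held whichever array was left out. Cd4 had 7.43 and 7.49 at 24 h and 8.08 and 8.06 at 0 h (-0.61 ± 0.13), Lat, the adaptor downstream of ZAP-70, fell by 0.61 ± 0.14, and Zap70 by 0.51 ± 0.13. Only 1 of the 2 tested probes of Lat moved down. Rasgrp1, which couples the receptor to RAS, rose (13.15 and 12.90 at 24 h, 12.16 and 11.61 at 0 h, 1.14 ± 0.20). Without the first or without the second 0 h array 1 of the 6 falls was called. Among helper T cell lineage factors, Gata3 fell by 0.58 ± 0.14 and the acetyltransferase gene Ep300 stood at -0.13 ± 0.13. The call of Gata3 was lost without the second 24 h array, without the first 0 h array and without the second 0 h array. Il9 was not among the probes tested.

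Most listed genes that interferons switch on as a defence against viruses fell by 24 h. Of 38 such genes measured, 31 were called lower, 0 higher and 7 not called, with a median of -1.22. Ifit3, which binds viral RNA complexes, had 6.31 and 6.30 at 24 h, against 10.35 and 10.27 at 0 h (log2 fold change -4.00 ± 0.13, limma adjusted p = 3.8e-06). Rsad2, the radical enzyme viperin, was undetected at 24 h (4.57 and 4.91, against 8.71 and 8.52 at 0 h) and at least 10.8-fold lower. Isg15, a ubiquitin-like modifier, had 6.15 and 6.22 at 24 h, against 9.53 and 9.65 at 0 h (-3.41 ± 0.13). All of these arrays were lower at 24 h than either array at 0 h.

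The oligoadenylate synthetase family, which senses double-stranded RNA, fell together. Oasl2 had 5.93 and 5.90 at 24 h, against 9.59 and 9.55 at 0 h (-3.66 ± 0.13), and Oas2 had 5.84 and 6.13, against 9.33 and 9.41 (-3.38 ± 0.15). Oasl1, Oas1g and Oas3 fell too (-3.02 ± 0.13, -2.32 ± 0.14 and -1.37 ± 0.13), and Oas1b stood at -0.53 and was not called. The nucleotide kinase gene Cmpk2 (-3.33 ± 0.15), the ISG15-removing protease Usp18 (-2.73 ± 0.15) and the transcription factor Irf7, which amplifies the interferon response (-2.62 ± 0.13), fell. Of the factors that transmit the signal, Irf9 fell by 1.11 ± 0.13 and Stat2 stood at -0.43. Whichever array was left out, 24 of the 31 were called, and with the 6 h arrays in the fit 20 were. These 6 h arrays differed from each other in the list, with Ifit3 at 8.94 and 6.76 and Isg15 at 7.96 and 5.93. They differed in markers of other cells too, with H2-Aa at 10.83 and 5.74, Lyz1 at 11.64 and 7.10 and Hba-a1 at 10.83 and 7.44. The natural killer genes Klrd1 (8.66 and 9.08), Klra3, Klra7 and Klre1 went the other way. That fit shares the spread of the 6 h arrays, so a lost call there does not measure the 24 h change alone.

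Stretches from promoters of the genes that fell are shown because they hold the letters of the interferon-stimulated response element. Capitals mark matches to GAAA, any bases NN and GAAA on either strand, overlapping matches run together, and each stretch reaches 20 bases beyond the outer matches (RefSeq, GRCm38.p6). That of Ifit3 is chr19:34583353-34583436, plus strand, that of Rsad2 chr12:26456543-26456592, minus strand, that of Oas1g chr5:120887596-120887651, minus strand, that of Bst2 chr8:71537567-71537622, minus strand, and that of Eif2ak2 chr17:78882525-78882574, minus strand. Isg15 is given whole, as chr4:156200769-156201068, minus strand.
Isg15: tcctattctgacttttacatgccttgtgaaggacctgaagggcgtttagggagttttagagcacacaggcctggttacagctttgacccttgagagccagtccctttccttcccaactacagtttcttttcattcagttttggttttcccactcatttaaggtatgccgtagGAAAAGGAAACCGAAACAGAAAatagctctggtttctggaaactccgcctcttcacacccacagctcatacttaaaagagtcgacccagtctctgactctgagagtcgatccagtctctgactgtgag
Ifit3: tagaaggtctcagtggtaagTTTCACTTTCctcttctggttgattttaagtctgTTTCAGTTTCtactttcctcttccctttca
Rsad2: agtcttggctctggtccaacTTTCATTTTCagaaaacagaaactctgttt
Oas1g: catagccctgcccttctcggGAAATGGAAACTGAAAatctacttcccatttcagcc
Bst2: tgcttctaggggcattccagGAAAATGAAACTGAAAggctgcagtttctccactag
Eif2ak2: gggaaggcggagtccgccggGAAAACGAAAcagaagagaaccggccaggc
In Isg15 3 overlapping matches make 1 block that begins at -78 from the start, in Oas1g 2 overlapping matches begin at -18 and -12, and in Bst2 at -130 and -124. The 2 matches in Ifit3, at -156 and -122, and the 1 in Rsad2, at -120, read on the opposite strand. The match in Eif2ak2 begins at +19. Among the 23 called members with a window, 11 genes hold a match, on 12 of 29 windows (41.4%), against 3.44% of all 32851 windows, 3.25% of those of genes tested, 6.19% of those of genes called lower and 2.49% of those of genes called higher. Of the 27 measured members with a window, called or not, 12 genes hold one, on 13 of 35 windows (37.1%). Most of these 35 windows are those of the called members, so these 2 shares cannot be set apart. Whether the letters bear on the fall was not tested. Tethering of the virus by Bst2 and the RNA-activated kinase of Eif2ak2 are further arms of the same programme, and these genes fell by 1.43 ± 0.14 and 1.34 ± 0.13.

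Of 12 measured interferon-inducible GTPases, which attack the vacuoles of intracellular microbes, 8 were called lower and 0 higher, with all 12 below 0 and a median of -0.64. Gbp2 had 9.13 and 9.10 at 24 h, against 10.87 and 10.93 at 0 h (-1.78 ± 0.13), and Tgtp1 had 5.90 and 5.60, against 7.48 and 7.48 (-1.73 ± 0.15). Without the second 0 h array 4 of the 8 were called. Of 22 genes of MHC class I and antigen processing 8 were lower and 0 higher, led by the peptide editor Tapbpl (-1.01 ± 0.14), the non-classical gene H2-T22 (-0.95 ± 0.14) and the immunoproteasome subunits Psmb10 and Psmb9 (-0.88 ± 0.13 and -0.69 ± 0.13). The classical genes H2-K1 and H2-D1 and B2m stood at -0.19, 0.01 and -0.06 and were not called. Without the first or without the second 0 h array 3 of these 8 were called.

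Immediate early genes, which are transcribed within minutes of a stimulus, were lower at 24 h. Of 30 measured, 20 were called lower, 3 higher and 7 not called, with a median of -0.94. The zinc finger factor Egr1 had 7.19 and 7.16 at 24 h, against 10.76 and 10.69 at 0 h (-3.55 ± 0.13), and Egr3 had 4.84 and 5.52, against 8.33 and 8.33 (-3.15 ± 0.21). Egr2 was also called lower. The AP-1 genes Junb (8.23 and 8.26 at 24 h, 11.30 and 11.44 at 0 h), Fos (8.51 and 8.37 at 24 h, 11.01 and 10.34 at 0 h) and Jun (5.22 and 5.13 at 24 h, 7.51 and 7.15 at 0 h) fell by 3.13 ± 0.13, 2.23 ± 0.21 and 2.15 ± 0.15. The groups were far apart in each of these genes. The MAP kinase phosphatases Dusp6, Dusp1 and Dusp2 fell as well (-2.60 ± 0.13, -2.47 ± 0.17 and -1.96 ± 0.14).

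The 3 members that rose were Myc, the cyclic AMP responsive repressor Crem (0.97 ± 0.24) and Rgs1, which shortens chemokine receptor signals (0.85 ± 0.17). Crem stood at 0.61 without the first 0 h array, and its call was lost without that array and without the second 24 h array. Whichever array was left out, 14 of the 20 falls were called. With the 6 h arrays in the fit 5 were, and these arrays differed widely, with Egr1 at 11.71 and 7.90 and Junb at 11.98 and 9.07. Of 17 NF-kB subunits and inhibitors, 5 were lower and 0 higher. They include Tnfaip3, the A20 enzyme that ends NF-kB signalling (7.33 and 7.08 at 24 h, 10.47 and 9.64 at 0 h, -2.84 ± 0.25), and the inhibitors Nfkbid (-1.89 ± 0.13), Bcl3 (-1.22 ± 0.14) and Nfkbie (-0.82 ± 0.16). The subunits Rela, Relb and Nfkb2 were not called, at -0.19, -0.38 and -0.37.

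Heat shock proteins and cytosolic chaperones were lower together. Of 24 measured, 18 were called lower and 0 higher, with 22 of 24 below 0 and a median of -0.82. The inducible HSP70 genes Hspa1b (4.39 and 4.35 at 24 h, 6.78 and 6.76 at 0 h) and Hspa1a (4.28 and 4.57 at 24 h, 6.81 and 6.60 at 0 h) were undetected at 24 h, at least 3.01-fold and 2.88-fold lower. They are near-identical copies, so their probes may read both. Hspa4l fell by 2.30 ± 0.14, and Hsph1, the HSP110 exchange factor, had 9.30 and 9.02 at 24 h, against 11.22 and 11.53 at 0 h (-2.22 ± 0.16). The inducible HSP90 gene Hsp90aa1 fell by 1.66 ± 0.14, the HSP40 genes Dnajb1 and Dnajb4 by 1.54 ± 0.14 and 1.29 ± 0.18, and the co-chaperones Cacybp, Chordc1 and Stip1 by 1.44 ± 0.14, 1.22 ± 0.14 and 1.16 ± 0.18. The mitochondrial pair Hspd1 and Hspe1 fell less, by 0.70 ± 0.14 and 0.71 ± 0.13. Whichever array was left out, 11 of the 18 were called, and 11 were without the second 0 h array; with the 6 h arrays in the fit 10 were.

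Promoters with the heat shock element are shown for 3 members that fell. Capitals mark the repeats GAA, TTC and GAA, parted by any bases NN, on either strand, the element bound by HSF1, with overlapping matches run together. Hsph1 is the whole window at chr5:149636287-149636586, minus strand, Hspd1 is chr1:55088039-55088096, minus strand, and Chordc1 is chr9:18292243-18292305, plus strand, the last 2 with 20 bases on each side of the matches (RefSeq, GRCm38.p6).
Hsph1: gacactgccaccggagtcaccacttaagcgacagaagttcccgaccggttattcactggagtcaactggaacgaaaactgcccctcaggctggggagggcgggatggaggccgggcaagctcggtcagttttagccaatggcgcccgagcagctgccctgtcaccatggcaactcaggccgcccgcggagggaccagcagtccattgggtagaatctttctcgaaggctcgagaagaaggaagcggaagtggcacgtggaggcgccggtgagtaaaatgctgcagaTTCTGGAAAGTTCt
Hspd1: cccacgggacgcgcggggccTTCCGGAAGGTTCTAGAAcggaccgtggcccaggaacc
Chordc1: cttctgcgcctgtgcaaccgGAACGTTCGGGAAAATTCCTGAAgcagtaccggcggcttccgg
The match in Hsph1 begins at +37, those in Hspd1 at -144 and -139 and those in Chordc1 at -4, +2 and +7. Of the 16 called members with a window, 4 genes hold a match (Chordc1, Hspd1, Hspe1 and Hsph1), on 5 of 23 windows (21.7%), against 0.603% of all windows and 1.14% of those of genes called lower. Over all 22 measured members with a window the same 4 genes hold it, on 5 of 30 windows (16.7%). No match lies in the windows of the other 12 called members, which says only that these letters are not there.

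Core and linker histone genes were lower as well. Of 26 measured, 16 were called lower and 1 higher, with a median of -0.78. H3c1 was undetected at 24 h and at least 3.26-fold lower. H4c11 had 6.36 and 6.24 at 24 h, against 8.18 and 7.99 at 0 h (-1.78 ± 0.14), and H2ac11, H2ac7 and H3c4 fell by 1.65 ± 0.18, 1.60 ± 0.13 and 1.59 ± 0.19. These belong to the clustered genes, most of whose transcripts end in a stem-loop in place of a poly(A) tail. The variant genes H2az1, H2az2, H3f3a, H3f3b and H2ax, whose transcripts mostly carry a tail, were not called (0.21, 0.23, -0.11, -0.07 and -0.14), and the variant Macroh2a1 rose by 0.60 ± 0.13. Whichever array was left out, 12 of the 16 falls were called, and 8 were with the 6 h arrays in the fit. The octamer ATTTGCAT, searched on both strands, lies in the windows of 6 of the 15 called members with one, on 6 of 16 windows (37.5%), against 1.74% of all windows. Among all 22 measured members with a window it lies in 7, on 7 of 23 windows (30.4%).

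Among all genes 9.66% were higher and 11.4% lower. Of 31 measured genes of DNA replication and mitosis 3 were higher (9.68%) and 3 lower (9.68%), near those shares, with a median of 0.01. They were Hmgb2 (0.95 ± 0.18), Cenpa (0.69 ± 0.13) and Lig1 (0.48 ± 0.14), and the replication genes Rfc4 (-0.65 ± 0.13), Rfc5 (-0.57 ± 0.13) and Mcm5 (-0.55 ± 0.13), and none of these calls held whichever array was left out. Mki67 was not among the probes tested. Of 21 G1 cyclins, CDKs and CDK inhibitors 2 were higher and 4 lower, with a median of -0.13. Cdk6, a kinase of G1, stood at 5.62 and 5.63 at 24 h and was undetected at 0 h (4.28 and 4.30), at least 1.46-fold higher. The transcription factor E2f2 fell by 1.51 ± 0.21 and the CDK inhibitor Cdkn2d by 0.92 ± 0.14.

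Of 17 measured genes of cholesterol synthesis 9 rose and 0 fell, with all 17 above 0 and a median of 0.50. Sqle, the squalene epoxidase, had 9.07 and 9.11 at 24 h and 7.98 and 7.90 at 0 h (1.15 ± 0.13). Stard4, a sterol carrier, rose by 0.95 ± 0.15, Cyp51 and Msmo1, which remove methyl groups from lanosterol, by 0.80 ± 0.13 and 0.69 ± 0.13, and Srebf2, the master factor of the pathway, by 0.76 ± 0.13 (9.04 and 9.07 at 24 h, 8.22 and 8.38 at 0 h). The retention factor Insig1 rose by 0.89 ± 0.22, but stood at 0.52 without the first 24 h array. Its call was lost without that array, without the first 0 h array and without the second 0 h array. Sqle was the one call that held whichever array was left out, while 3 genes were called without the first 0 h array and 4 without the second. The sterol element TCACNCCAC, searched on both strands, was in 0 of the 7 windows of called members and in 1.24% of all windows. Of 15 genes of fatty acid synthesis 3 were higher and 2 lower, led by the elongase Elovl6 (1.31 ± 0.13) and by the desaturase Scd2, undetected at 24 h and at least 1.89-fold lower.

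Stress, forkhead and hormone response genes had calls in both directions within each list, beside 9.66% higher and 11.4% lower over all genes. The shares called higher in endoplasmic reticulum folding (9.52%) and among glucocorticoid-responsive genes (13.3%) were near that over all genes. Of 22 FOXO targets, 8 were higher and 5 lower, with a median of 0.36. They include Trib3, Bcl2l11, Klf2, Insr, the insulin receptor (0.60 ± 0.13), and Sesn1 (0.49 ± 0.13) above, and the mTORC1 inhibitor Ddit4 (9.27 and 9.44 at 24 h, 11.22 and 11.49 at 0 h), Bcl6 and Sesn3 (-0.78 ± 0.13) below; Trib3, Bcl2l11, Ddit4 and Bcl6 were called whichever array was left out. Among 15 glucocorticoid-responsive genes 2 were higher and 4 lower. The factor Klf9 had 9.19 and 9.06 at 24 h, against 7.02 and 6.75 at 0 h (2.24 ± 0.15), whereas the kinase Sgk1 fell by 1.51 ± 0.13 and Tsc22d3, known as GILZ, stood at -0.07. Of 13 amino acid response genes 3 were higher and 4 lower, with the factor Cebpb at -2.14 ± 0.13 (6.73 and 6.88 at 24 h, 8.92 and 8.96 at 0 h) and Atf4, the factor that heads this response, not called at -0.42. Of 21 genes of endoplasmic reticulum folding 2 were higher and 5 lower, with a median of -0.13. Xbp1 rose by 0.71 ± 0.13 and the chaperone Hspa5 fell by 1.23 ± 0.15. Of 20 genes of oxidative stress and thioredoxin 5 were higher and 1 lower, led by Gstp1 (0.93 ± 0.13).

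Of 66 measured respiratory chain genes 0 were higher and 5 lower (median -0.03), and of 22 genes of glycolysis and the pentose phosphate path 1 was higher and 2 lower (median -0.04). Each share was below that over all genes, 9.66% higher and 11.4% lower. The glucose transporter Slc2a1 was not called (8.58 and 8.68 at 24 h, 9.01 and 8.83 at 0 h, -0.29 ± 0.14), and Ldha fell by 0.59 ± 0.14. Idh1, the cytosolic isocitrate dehydrogenase, rose by 1.03 ± 0.13, the only call among 21 citric acid cycle genes. Among 52 cytosolic ribosomal proteins 0 were higher and 3 lower, among 43 genes of ribosome biogenesis 0 and 2, and among 32 proteasome genes 0 and 1. These shares too were below those over all genes. Of 30 genes of translation initiation and elongation 4 were higher and 0 lower (median 0.05), and of 11 genes of polyamine metabolism 2 and 0 (median 0.20). Eif5a, a translation factor that carries hypusine, rose by 0.87 ± 0.14, and Amd2, an enzyme of polyamine synthesis, by 0.85 ± 0.13; both calls held whichever array was left out.

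**Figure D4:**
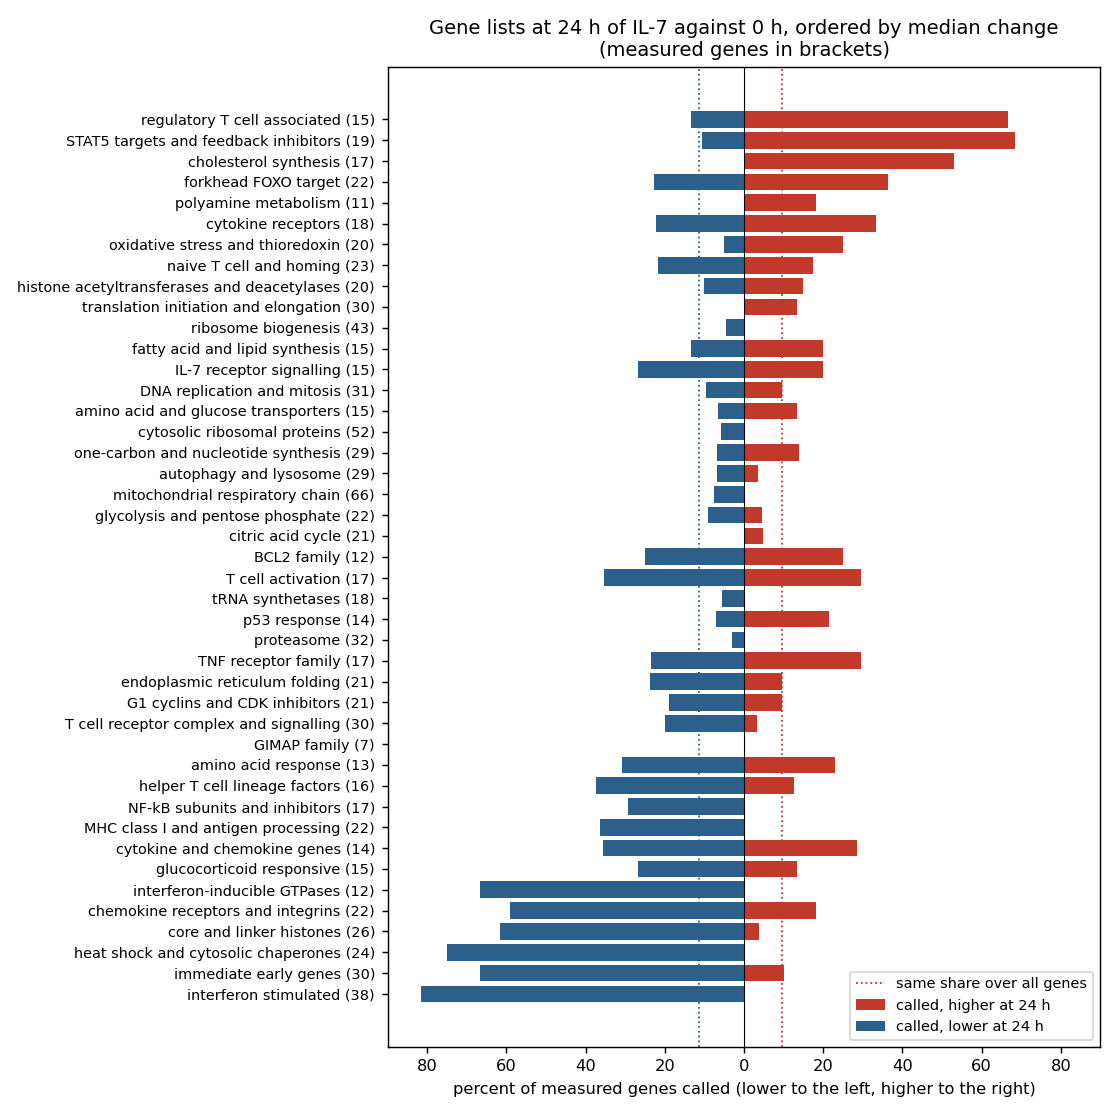
Percent of measured genes called higher (red, to the right) and lower (blue, to the left) in each gene list, marker lists of cell types left out, with at least 5 measured members (number in brackets), ordered by median log2 fold change; dotted lines give the same shares over all 8176 genes, 9.66% and 11.4%. Regulatory T cell associated genes, STAT5 targets and cholesterol synthesis stand at the top, and heat shock, immediate early and interferon-stimulated genes at the bottom. The lists were chosen with earlier results of these data known.

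**Figure D5:**
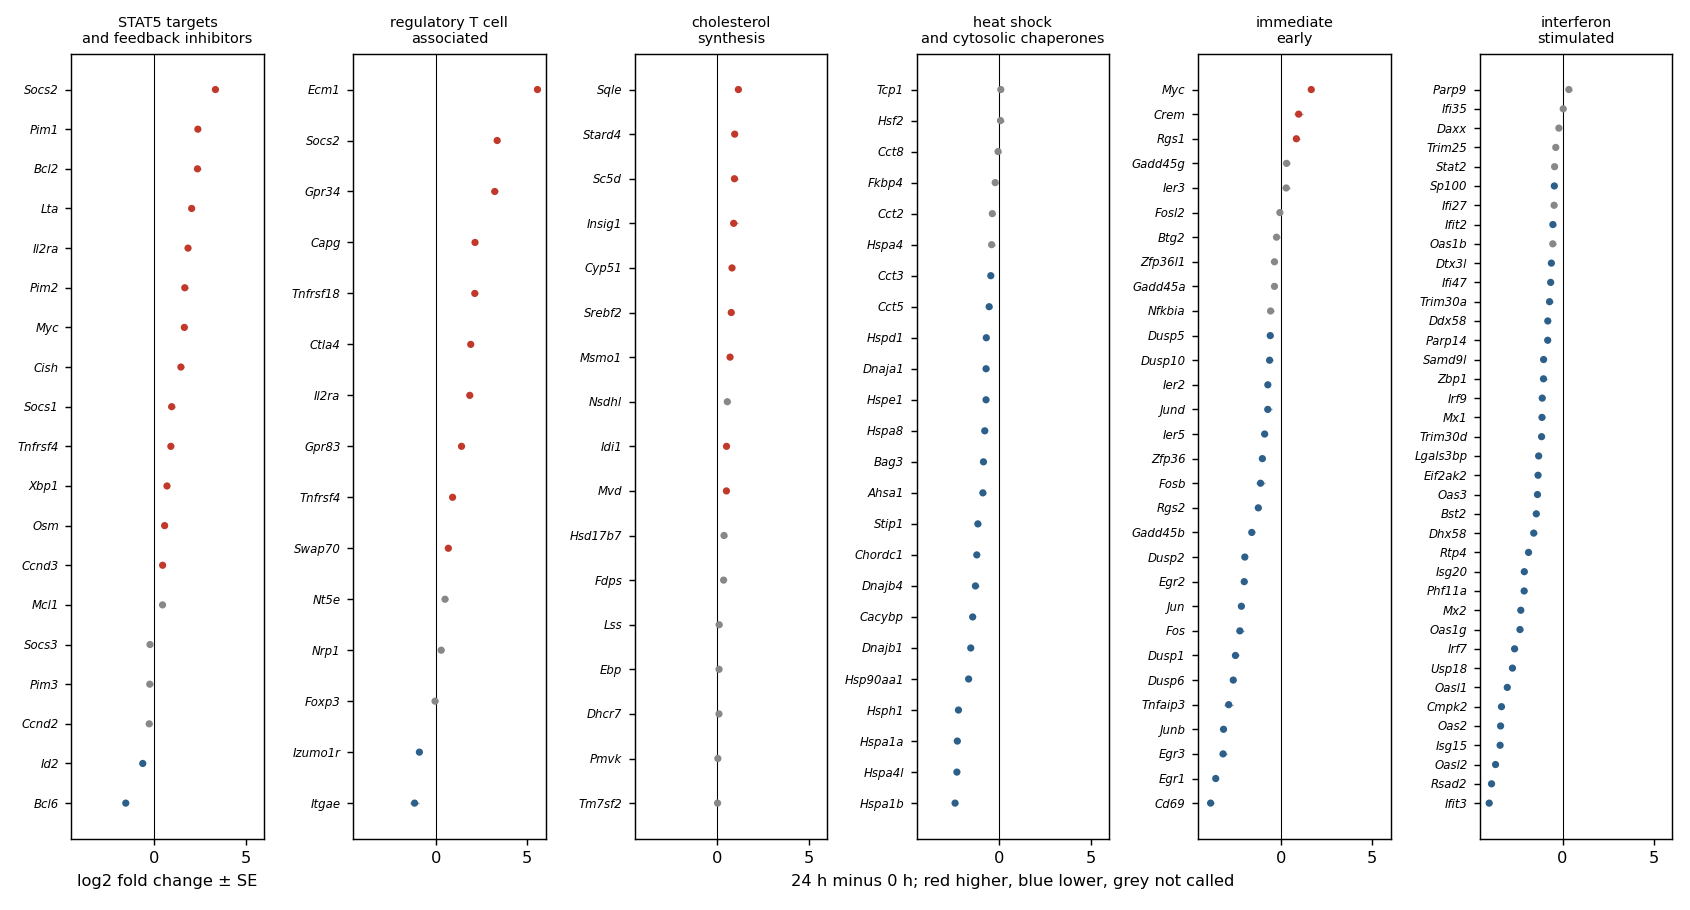
Log2 fold change (24 h minus 0 h, horizontal axis) of every measured member of 6 lists, with the SE of the fit as grey bars mostly hidden by the points; red is called higher, blue called lower and grey not called. The interferon-stimulated genes run from 0.34 for Parp9 to -4.00 for Ifit3, and the STAT5 targets from -1.54 for Bcl6 to 3.36 for Socs2.

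Few probes were called between 24 h and 6 h. In the fit of all 6 arrays of the time course, 49 of 16104 probes differed between 24 h and 6 h (0.304%). The 6 h arrays were unlike each other in many of the genes named, among them markers of other cells, as given above. Myl10, at 7.62 and 7.67 at 24 h, stood at 4.76 and 4.47 at 6 h (limma adjusted p = 0.0036), and Drc1, at 8.26 and 8.21 at 24 h, stood at 5.79 and 5.91 at 6 h (adjusted p = 0.0091), so their 6 h arrays lay far below those at 24 h. Ecm1 had 13.06 and 13.40 at 6 h (24 h minus 6 h 0.14 ± 0.19) and Myo6 had 12.20 and 12.37 (-0.33 ± 0.16). Neither Ecm1 nor Myo6 passed this test between 24 h and 6 h. Irf4 and Cd69 were lower at 24 h than at 6 h. Irf4 had 8.64 and 7.44 at 6 h and was undetected at 24 h, and Cd69 had 11.99 and 10.57 at 6 h (24 h minus 6 h -3.70 ± 0.43). The count was 0 without either 24 h array, 1 without either 0 h array, and 338 and 1865 without the first and the second 6 h array, so these calls depend on single arrays.

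A second probe gave a partial check within the same arrays. Among genes whose brightest probe was called, 972 further probes were tested, of which 846 (87.0%) moved in the same direction, 490 were called in that direction and 10 in the opposite one. These probes share the RNA and the arrays, so they check the probe and not the sample. Of the called probes, 572 carried no gene symbol and are not named here.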

How the data were processed

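Total RNA was labelled with biotin and hybridised to Illumina mouse BeadChips, per the labels' protocols. The deposited intensity of each of 45281 probes is a linear signal with background subtracted and no scaling between arrays; GenomeStudio is named, without a version, per the submitters' processing notes. A detection p-value for each probe and array was deposited beside it. A second, scaled table was not used here. Build and probe positions are not given in the sources used here. Symbols came from GEO's platform annotation: 34885 probes had 1, 18 several and 10378 none, and matching to RefSeq (GRCm38.p6) changed 0.

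The neqc function (limma 3.58.1, R 4.3.3) normalised the 4 arrays (normexp with negative controls inferred from detection p, quantile, log2, offset 16). Probes with detection p under 0.01 on 2 or more arrays were tested (lmFit, eBayes, 2 residual degrees of freedom, 2-sided, Benjamini-Hochberg over all of them, called under 0.05). The 6-array fit served 24 h against 6 h. The number of arrays limits the precision. Genes in the text are the 15 largest rises and falls among called genes, up to 5 called members per list and direction, and a fixed set of receptor, signalling and lineage genes; uncalled list members, second probes, markers and promoter motif holders were added after their values were seen. The members, lists and motifs were chosen with earlier results of these data known. Lists share genes and were described by counts and medians, with no test. Array probes of near-identical genes may read each other. Promoter windows were RefSeq's (GRCm38.p6). Alternatives were other scalings, offsets, filters and moderation, the replicate block and each array left out. Replicate differences at 24 h and 0 h correlated at 0.14 over probes, but 2 pairs do not show that the numbers pair samples.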

Additional observations from a re-analysis of the deposited data

How the results depend on the processing

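Of 3219 called probes, 1578 were higher and 1641 lower. Without the filter on dim probes 2058 were called (1017 higher, 1041 lower), and with the 6 h arrays in the fit 932 (490 higher, 442 lower). Leaving out each array in turn gave 1152 to 2300 calls, 540 to 1129 higher, 612 to 1171 lower and 753 to 885 with a change of 2-fold or more; in these fits the lone array of a group is assumed to vary like the other group. The count at 2-fold or more was 435 with an offset of 50, against 786. The other settings, which were 75th percentile scaling, cyclic loess, no normexp, detection on all 4 arrays, 1 probe per gene and trend and robust moderation, gave 2436 to 3929 calls. With replicate number as a block 3727 probes were called (the replicate block kept all 3219), and the numbers are not known to pair samples. Between 24 h and 6 h, 49 calls became 2 without the filter and 6 with the replicate block, and 0 to 1865 when each array was left out. Of 238 named calls, 101 held with the 6 h arrays, 172 without the filter and 115 whichever array was left out. None of these changed direction in the settings that tested it; with detection on all 4 arrays 198 of the 238 were tested. When each array was left out, genes not called changed sign: Cd3e ranged over -0.046 to 0.042 (0.042 and 0.013 without the first 24 h and first 0 h array), Foxp1 over -0.055 to 0.43 (-0.055 without the second 24 h array) and Foxp3 over -0.11 to 0.046 (0.038 and 0.046 without the first 24 h and first 0 h array). Limits are 2 arrays a group, 1 BeadChip, no cultured cells without IL-7, and a fold compressed for dim probes, where signal nears background.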
